A study of Mus musculus with 6 samples.

Results

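Messenger RNA of 10 Polycomb complex genes was followed in mouse embryonic stem (ES) cells as they were moved from serum to 2i+vitC medium. The genes were taken by name from the 12626 genes of the processed files, where each had 1 row. They comprised 4 core subunits of Polycomb repressive complex 2 (PRC2: Ezh1, Ezh2, Eed and Suz12), 3 accessory subunits of PRC2 (Jarid2, Mtf2 and Phf19) and 3 subunits of Polycomb repressive complex 1 (PRC1: Rnf2, Ring1 and Cbx7). All samples came from the WT ES line J1, grown without feeders on gelatin and in the presence of leukemia inhibitory factor. The D0 cells were in medium with fetal bovine serum, while D6 and D13 cells had spent 6 and 13 days in serum-free medium with the Gsk3 inhibitor CT-99021, the MEK inhibitor PD0325901 and vitamin C. There were 2 replicates per day and 6 samples in all. Serum was sampled only at D0, so that time and medium cannot be told apart in the comparisons with D0. As a single line was used, differences between ES lines were not covered.

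Polycomb complexes keep developmental genes silent. PRC2 methylates lysine 27 of histone H3 (H3K27me3): EZH1 or EZH2 is the catalytic subunit, EED reads the mark, SUZ12 holds the complex together, and accessory proteins such as JARID2 and the Polycomb-like proteins MTF2 and PHF19 help it to find chromatin, often at CpG islands. PRC1 ubiquitylates histone H2A through RNF2 (RING1B) or RING1, and in its canonical form reads H3K27me3 through a CBX protein, of which CBX7 is well known in ES cells.

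The promoters of the 3 genes that passed the test between at least 1 pair of days are shown as windows of 300 bases (250 before and 50 after the annotated start, RefSeq, GRCm38.p6, 5′ to 3′ on the strand of the gene), to let the CpG content be seen at the start of each gene. All 10 genes matched an entry, with 12 windows in all. Capitals mark each CG pair. Jarid2 had 2 entries on the plus strand, at chr13:44730524-44730823 and chr13:44731021-44731320, Phf19 lay on the minus strand at chr2:34913927-34914226, and Cbx7 on the minus strand at chr15:79932597-79932896.
Jarid2, entry 1: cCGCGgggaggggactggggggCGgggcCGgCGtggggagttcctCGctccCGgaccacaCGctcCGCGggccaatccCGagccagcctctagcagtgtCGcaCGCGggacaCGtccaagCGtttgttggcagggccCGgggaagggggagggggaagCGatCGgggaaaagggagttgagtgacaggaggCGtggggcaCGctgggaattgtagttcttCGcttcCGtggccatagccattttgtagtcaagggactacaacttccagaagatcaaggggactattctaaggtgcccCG
Jarid2, entry 2: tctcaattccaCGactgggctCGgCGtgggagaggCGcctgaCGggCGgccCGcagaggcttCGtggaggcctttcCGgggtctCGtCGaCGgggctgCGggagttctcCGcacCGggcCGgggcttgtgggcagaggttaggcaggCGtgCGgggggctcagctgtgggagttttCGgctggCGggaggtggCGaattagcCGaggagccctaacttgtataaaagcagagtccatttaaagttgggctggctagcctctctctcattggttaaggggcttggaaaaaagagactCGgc
Phf19: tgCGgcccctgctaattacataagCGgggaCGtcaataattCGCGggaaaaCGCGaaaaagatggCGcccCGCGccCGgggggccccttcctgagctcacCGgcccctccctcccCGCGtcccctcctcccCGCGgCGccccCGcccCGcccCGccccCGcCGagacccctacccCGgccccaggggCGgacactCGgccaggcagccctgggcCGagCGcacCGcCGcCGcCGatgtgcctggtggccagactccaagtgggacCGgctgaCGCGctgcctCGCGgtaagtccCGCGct
Cbx7: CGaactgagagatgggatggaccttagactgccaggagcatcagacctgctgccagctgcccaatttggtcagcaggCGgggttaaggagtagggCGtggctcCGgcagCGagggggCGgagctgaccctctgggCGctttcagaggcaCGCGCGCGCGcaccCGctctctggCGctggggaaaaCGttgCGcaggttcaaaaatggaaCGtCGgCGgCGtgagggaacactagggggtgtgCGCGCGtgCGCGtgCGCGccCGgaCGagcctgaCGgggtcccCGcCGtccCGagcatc

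These windows were rich in CpG. Jarid2 held 24 and 23 CG pairs, Phf19 38 and Cbx7 33, against a median of 7 over 32851 promoters of the same length, and 19.98%, 21.52%, 4.95% and 8.56% of all promoters held at least as many. The genes that did not pass the test had CpG-rich windows too. Suz12 held 41 CG pairs, Ring1 37, Ezh2 31, Rnf2 30, Ezh1 23 and Eed 17, and Mtf2 held 30 in its first window and 2 in a second, downstream one. A match on either strand was sought for 3 motifs, none of which contains another. The E2F motif TTCCCGC was found in the windows of Suz12 and Phf19, and 4.6% of all promoters held it. The TCF motif CTTTGAA was found in that of Suz12 and in 5.14% of all promoters. The E-box, searched as CACGTG, was in none of the 12 windows and in 7.15% of all promoters. A match of letters is a description, not a binding site.

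Between 73230745 and 83688345 reads per sample had been counted on genes, and 3 reads corresponded to at most 0.042 CPM, the reads of a gene scaled to library size. Values are deposited log2 CPM. Days were compared with limma in a single fit of the 6 samples, and a gene was called at a Benjamini-Hochberg adjusted p under 0.05. D13 replicate 1 stood apart by transcript length: relative to D13 replicate 2, its median log2 CPM was higher by 0.57 over transcripts of up to 1.5 kb and differed by -0.82 over those longer than 9 kb. D0 replicate 2 had a weaker trend in the opposite direction. Its median deviation from each gene's mean was -0.33 up to 1.5 kb and 0.36 over 9 kb. For the 10 genes and the subunits, enzymes and targets named for a change from D0 to D13, this change is therefore given also without D13 replicate 1. Where the gene had a matched length, it is given also with the trend with length removed from every sample, an alternative chosen after seeing the data. All 10 ES cell markers had a row, with a summed level of 3036 to 3985 CPM at D0, 5011 to 5430 at D6 and 4282 to 4363 at D13. They did not move as a group: from D0 to D13, 3 rose (Tfcp2l1, Nanog and Klf4) and 3 fell (Utf1, Sox2 and Sall4, where Sox2 was not called without D13 replicate 1 and Sall4 neither without it nor without the length trend), and the higher sum was carried mainly by Tfcp2l1, at 85.1 and 188 CPM at D0 and 888 and 1465 CPM at D13. Formative or primed markers (5 of 6 with a row, Fgf5 without) summed to 1123 to 1328 CPM at D0 and 83.2 to 137 later, and all 5 fell from D0 to D6. Of the fibroblast markers, 4 of 7 had a row (not Col3a1, Postn or Lum) and summed to 23.7 to 39.25 CPM at D0 and 6.36 to 7.23 later. Of the primitive endoderm markers, 5 of 7 had a row (not Foxa2 or Sox7) and summed to 154 to 241 CPM at D0 and 89.1 to 131 later. The lower sum came from Col4a1 (81.7 and 126 CPM at D0, 2.08 and 3.07 CPM at D13) and Dab2, which fell. Lama1, Pdgfra and Sox17 had positive log2 changes in both comparisons with D0 and passed no test in the main fit. With the length trend removed, Lama1 was called upward from D0 to D13 (log2 change 1.06, limma adjusted p = 0.0071), and Pdgfra and Sox17 were not called. The part of these cell types in the results was not tested. In RNA of whole cultures, fewer cells with a transcript and less transcript per cell cannot be told apart.

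**Figure D1:**
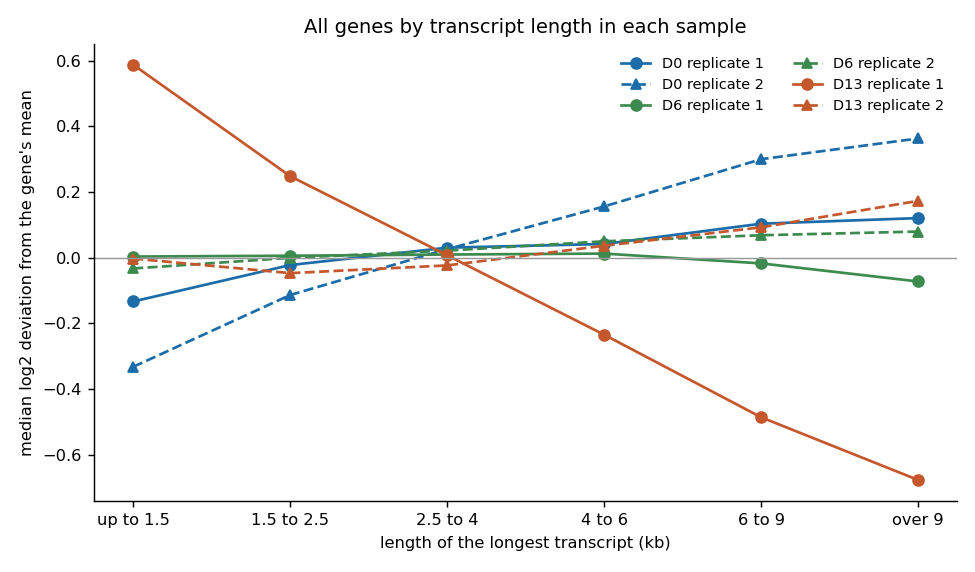
Median deviation of log2 CPM from each gene's mean over the 6 samples (y axis), for 11214 genes in 6 classes of transcript length (x axis, kb), with 1 line per sample. D13 replicate 1 runs from 0.59 for the shortest transcripts to -0.68 for the longest, while the other 5 samples lie between -0.33 and 0.36.

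Of the 10 Polycomb genes, 7 passed no test between any pair of days, and the 3 that did, Jarid2, Phf19 and Cbx7, fell. From D0 to D6, 2 of the 10 genes were called, Jarid2 and Phf19, where 24.2% of all genes were called in either direction. From D0 to D13, 2 of the 10 were called, Jarid2 and Cbx7, where 42.7% of all genes were called. From D6 to D13, 0 of the 10 were called by limma, where 4.18% of all genes were called, and limma with voom precision weights also called 0. At an unadjusted p under 0.05 there were 5, where 3156 of all 12626 genes were under it. With a further minimum of a 4-fold change, 0 of the 10 were called from D0 to D6 (all genes, 9.81%), 0 from D6 to D13 (all genes, 1.09%) and 1, Jarid2, from D0 to D13 (all genes, 13.5%). Voom weights gave the same counts under this rule. Without the minimum, 4 of the 10 had an unadjusted p under 0.05 from D0 to D6, as had 4546 of all 12626 genes. From D0 to D13 it was 6527 of all genes. These numbers over all genes apply to the counts at an unadjusted p given below. The share of genes called was thus not above that of all genes in the 2 comparisons with D0.

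**Figure D2:**
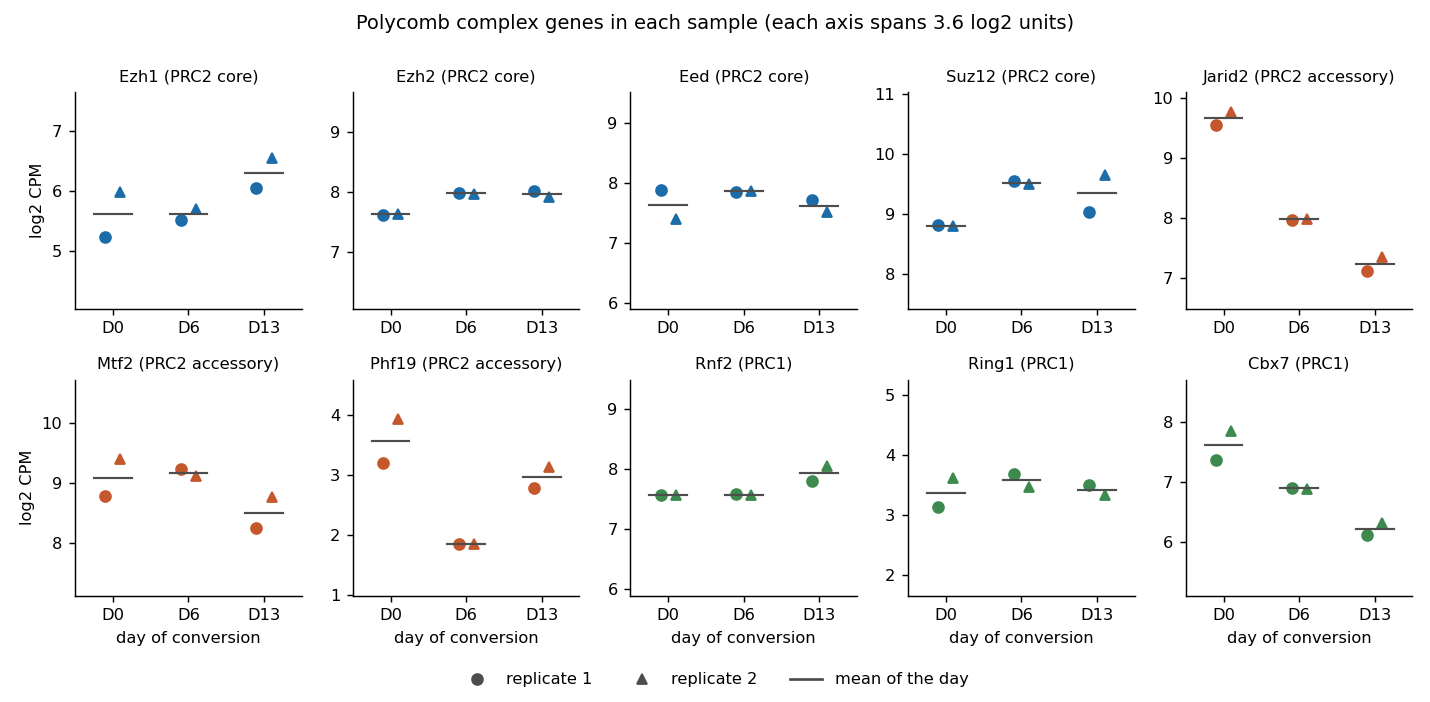
Log2 CPM (y axis) of each of the 10 genes at D0, D6 and D13 (x axis), where circles are replicate 1, triangles replicate 2 and lines the mean of the day. Jarid2 and Cbx7 step down at each day, Phf19 dips at D6, and the replicates of Ezh1, Mtf2 and Phf19 lie widely apart at D0.

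Among the core subunits of PRC2, none passed the test between any pair of days, and their log2 changes between D0 and D13 ran from -0.02 for Eed to 0.69 for Ezh1. The 4 genes had a median log2 change of 0.29 up to D6, -0.10 for D6 to D13 and 0.44 from D0 to D13, beside a median over all genes of -0.01 in each. In limma, 0 were called in each comparison, and 1 of the 4 had an unadjusted p under 0.05 in each, while voom weights also gave 0.

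Suz12, the scaffold of PRC2, had a log2 CPM of 8.81 and 8.81 in replicates 1 and 2 at D0, followed by 9.55 and 9.50 at D6 and by 9.04 and 9.66 at D13. All samples in 2i+vitC were above those in serum, and the D13 replicates lay on either side of D6. The log2 change was 0.71 ± 0.26 (standard error, n = 2 per day, 95% interval 0.13 to 1.30, limma adjusted p = 0.077) between D0 and D6 and 0.54 ± 0.26 (-0.04 to 1.12, limma adjusted p = 0.12) from D0 to D13. The call turned with D13 replicate 1. Without this library, limma gave 0.71 (adjusted p = 0.023) to D6 and 0.84 (adjusted p = 0.024) to D13, and with the length trend removed 0.76 (adjusted p = 0.025) and 0.68 (adjusted p = 0.024). Leaving out D13 replicate 2 also gave a call at D6. Over 14 alternative fits, the adjusted p ranged from 0.022 to 0.38 to D6 and from 0.024 to 0.37 to D13.

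Ezh2, the main H3K27 methyltransferase of dividing cells, had a log2 CPM of 7.62 and 7.64 at D0, followed by 7.99 and 7.97 at D6 and by 8.02 and 7.91 at D13. The 4 later samples were all above the D0 samples, by less than the test could call. The log2 change was 0.35 ± 0.20 (95% interval -0.09 to 0.80, limma adjusted p = 0.24) between D0 and D6 and 0.34 ± 0.20 (-0.11 to 0.78, limma adjusted p = 0.20) from D0 to D13. The latter was 0.28 without D13 replicate 1 and 0.32 without the length trend, neither called.

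Ezh1, its less active paralog, known from resting and differentiated cells, had a log2 CPM of 5.23 and 5.97 at D0, followed by 5.52 and 5.69 at D6 and by 6.04 and 6.55 at D13. The D0 samples spanned the D6 samples, and both D13 samples were above all others. The log2 change from D0 to D13 was 0.69 ± 0.30 (95% interval 0.02 to 1.37, limma adjusted p = 0.091), and without the length trend 0.83 (limma adjusted p = 0.027). Without D13 replicate 1 it was 0.95 (limma adjusted p = 0.075). It was 0.44 without D13 replicate 2, 0.32 without D0 replicate 1 and 1.06 without D0 replicate 2 (called), so that single libraries of both days moved its size, and the adjusted p over 14 alternative fits ranged from 0.027 to 0.41.

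Eed, the reader of H3K27me3, had a log2 CPM of 7.89 and 7.40 at D0, followed by 7.86 and 7.87 at D6 and by 7.73 and 7.52 at D13. Its D0 samples spanned all others, and from D0 to D13 the log2 change was -0.02 ± 0.23 (95% interval -0.55 to 0.50, limma adjusted p = 0.94), with -0.13 without D13 replicate 1 and -0.15 without the length trend. A change of any size within that interval would be compatible with these replicates.

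The accessory subunits of PRC2 took different courses from each other. Jarid2 fell by D6 and by D13, Phf19 fell by D6 and passed no test after it, and Mtf2 passed no test. Their median log2 change was -1.69 up to D6, -0.67 for D6 to D13 and -0.60 from D0 to D13. In limma, 2 of 3 were called downward to D6, 0 from D6 to D13 and 1 from D0 to D13. From D6 to D13 all 3 had an unadjusted p under 0.05, as had 3156 of all 12626 genes, while voom weights called 0.

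Jarid2, a DNA-binding cofactor that helps to recruit PRC2 and stimulates its activity, changed most of the 10 genes between D0 and D13. Its log2 CPM was 9.55 and 9.77 at D0, followed by 7.96 and 7.98 at D6 and by 7.11 and 7.34 at D13. Each day lay below the day before, with no overlap between days. It fell 3.22-fold to D6, a log2 change of -1.69 ± 0.21 (95% interval -2.17 to -1.21, limma adjusted p = 0.00064), and 5.41-fold to D13, with -2.43 ± 0.21 (-2.92 to -1.95, limma adjusted p = 7.3e-05). The latter was rank 510 from the lowest of 12626 genes. The step from D6 to D13 alone, -0.75 ± 0.21 (-1.23 to -0.27, limma adjusted p = 0.077), was not called. Jarid2 has a long transcript, of 8353 bases at most, and genes of 6 to 9 kb had a median deviation of -0.49 in D13 replicate 1. Without that library the log2 change from D0 to D13 was -2.32 (limma adjusted p = 0.0018), and with the length trend removed it was -2.001 (limma adjusted p = 0.00018). The gene was called at D6 and at D13 in 14 of 14 alternative fits, with adjusted p against D0 between 0.00014 and 0.0066 at D6 and between 5.1e-06 and 0.0018 at D13.

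Phf19, a Polycomb-like protein that binds H3K36me3 and CpG-rich DNA, had the lowest mean level per kb of the 10 genes on each day and its minimum at D6. Its log2 CPM was 3.19 and 3.92 at D0, followed by 1.85 and 1.84 at D6 and by 2.78 and 3.14 at D13, from 719 and 1324, 284 and 305, and 492 and 661 reads. Both D6 samples were below all others, and both D13 samples were below both D0 samples, the upper narrowly. It fell 3.27-fold to D6 (log2 change -1.71 ± 0.34, 95% interval -2.48 to -0.94, limma adjusted p = 0.0068), called in 14 of 14 alternative fits with adjusted p of 0.0022 to 0.039. After D6 the log2 change was 1.11 ± 0.34 (0.34 to 1.89, limma adjusted p = 0.094), rank 555 from the highest of all genes but not called, and from D0 to D13 it was -0.60 ± 0.34 (-1.37 to 0.18, limma adjusted p = 0.19). The latter was -0.42 without D13 replicate 1 and -0.50 without the length trend, neither called.

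Mtf2, the Polycomb-like protein that links PRC2 to unmethylated CpG islands, had a log2 CPM of 8.78 and 9.40 at D0, followed by 9.23 and 9.12 at D6 and by 8.25 and 8.77 at D13. Its D6 samples lay within the span of D0, and both D13 samples were below both D0 samples, the upper narrowly. The log2 change was 0.08 ± 0.28 (95% interval -0.56 to 0.72, limma adjusted p = 0.87) between D0 and D6 and -0.58 ± 0.28 (-1.23 to 0.06, limma adjusted p = 0.13) from D0 to D13. The latter was -0.32 without D13 replicate 1 and -0.46 without the length trend, neither called.

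**Figure D3:**
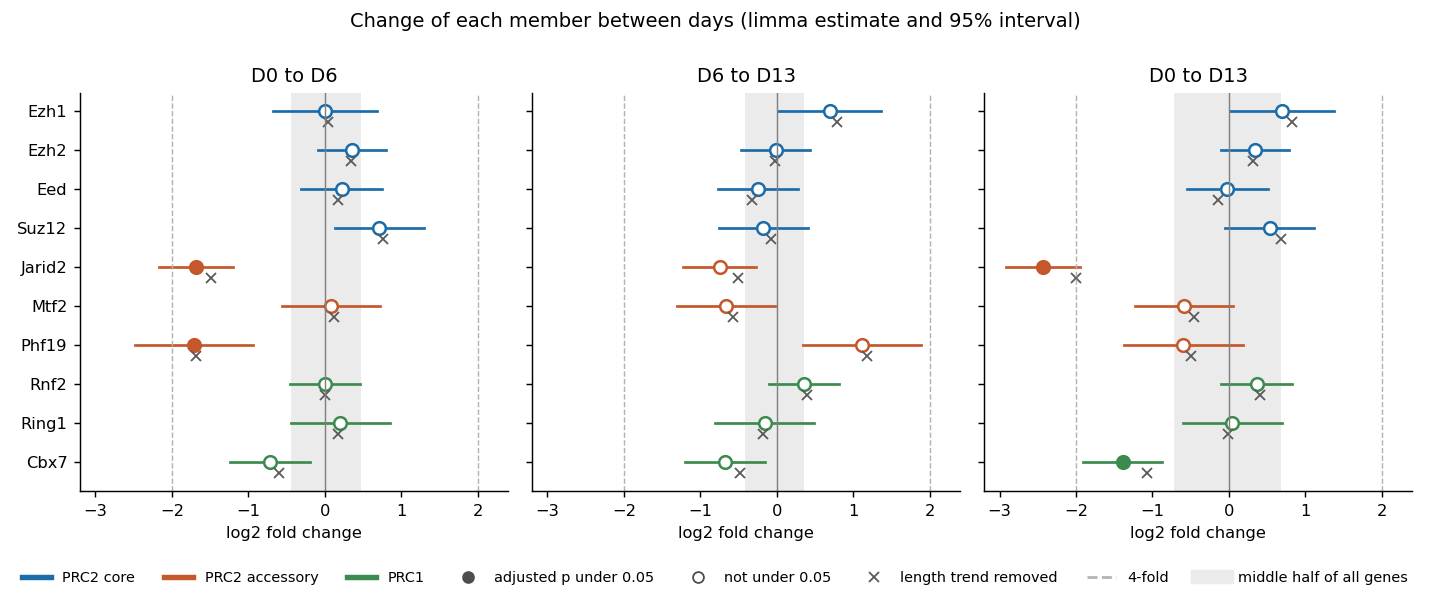
Limma log2 changes (x axis) of the 10 genes (y axis) in the 3 comparisons, with 95% intervals, where filled points passed an adjusted p under 0.05, crosses are values with the length trend removed, dashed lines mark 4-fold and the grey band holds the middle 50% of all genes. Jarid2, Phf19 and Cbx7 carry the filled points, all to the left of 0, while the core genes of PRC2 lie near the grey band.

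Of the PRC1 genes, Cbx7 fell and the E3 ligase genes Rnf2 and Ring1 passed no test. The median log2 change of the 3 was 0.01 up to D6, -0.16 for D6 to D13 and 0.04 from D0 to D13. In limma 0 were called to D6 and 0 from D6 to D13, with 1 in each at an unadjusted p under 0.05 and 0 with voom weights, and 1 was called from D0 to D13.

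Cbx7, which reads H3K27me3 for canonical PRC1 in ES cells, had a log2 CPM of 7.37 and 7.85 at D0, followed by 6.91 and 6.89 at D6 and by 6.12 and 6.32 at D13. As for Jarid2, each day lay below the day before with no overlap. From D0 to D13 it fell 2.62-fold, a log2 change of -1.39 ± 0.23 (95% interval -1.91 to -0.87, limma adjusted p = 0.0018), called in 14 of 14 alternative fits. It was -1.29 (limma adjusted p = 0.013, the highest of those fits) without D13 replicate 1 and -1.07 (limma adjusted p = 0.0025) without the length trend. From D0 to D6 the log2 change was -0.71 ± 0.23 (-1.24 to -0.19, limma adjusted p = 0.053), and 6 of 14 alternative fits called it, with adjusted p from 0.031 to 0.30.

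Rnf2, which encodes RING1B, the main H2A ubiquitin ligase of ES cells, had a log2 CPM of 7.57 and 7.57 at D0, followed by 7.58 and 7.57 at D6 and by 7.81 and 8.06 at D13. The 4 earlier samples were nearly equal and both D13 samples were above them. The log2 change was 0.01 ± 0.20 (95% interval -0.45 to 0.46, limma adjusted p = 0.99) between D0 and D6 and 0.36 ± 0.20 (-0.10 to 0.82, limma adjusted p = 0.18) from D0 to D13. Without D13 replicate 1 the latter was 0.48 (limma adjusted p = 0.086), and without the length trend 0.40 (limma adjusted p = 0.077). Ring1, which encodes the paralogous ligase RING1A, ran from a log2 CPM of 3.13 to 3.68 over the 6 samples, with overlap between all days and a log2 change from D0 to D13 of 0.04 ± 0.29 (-0.61 to 0.69, limma adjusted p = 0.91), which was -0.04 without D13 replicate 1 and -0.02 without the length trend.

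Set side by side in the main fit, the called genes lay outside the core of PRC2. The core held 0 of 4 genes called, the accessory subunits 2 of 3 and PRC1 1 of 3, counting a call in any comparison. Over all genes, 46.6% were called in at least 1 of the 3 comparisons. With the length trend removed, 2 of the 4 core genes, Suz12 and Ezh1, were called upward from D0 to D13. In that fit and over the same days, 1 of the 3 accessory and 1 of the 3 PRC1 genes were called downward, as were 23.0% of all genes. The share of all genes called upward in that fit is not given here, so the 2 core genes called are no result about the core. These are counts over 10 chosen genes, the comparisons share their samples, and no test of the difference between classes was made. Within PRC2, the transcript of Jarid2 lost ground to that of Suz12 in every later sample. On the log2 CPM scale, Jarid2 minus Suz12 was 0.73 and 0.96 at D0, followed by -1.58 and -1.53 at D6 and by -1.93 and -2.31 at D13. Per kb of exon, there were 0.847 and 0.99 times as many Jarid2 as Suz12 reads at D0, then 0.17 and 0.177 times at D6 and then 0.133 and 0.102 times at D13. No value in 2i+vitC came near those in serum. With 2 samples against 2, the smallest two-sided p of an exact permutation test is 0.33, so none was run. Mtf2 per kb was 0.85 and 1.31 times Suz12 at D0, then 0.697 and 0.664 times at D6 and then 0.503 and 0.469 times at D13. Ezh2 per kb remained between 0.221 and 0.366 times Suz12 over the 6 samples, with D13 holding both ends of that range. This ratio depends on the length taken, and ran from 0.468 to 0.775 with the longest transcript in place of the exon union.

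Levels were compared between genes as CPM per kb of exon (union of the exons in GENCODE vM21). At D0 the order of the means was Mtf2 (98.04), Suz12 (90.81), Jarid2 (83.38), Eed (52.99), Rnf2 (46.07), Cbx7 (30.56), Ezh2 (29.62), Ezh1 (6.75), Ring1 (3.23) and Phf19 (2.41). Neighbours whose samples overlapped at D0, and so were not told apart, were Mtf2 with Suz12, Eed with Rnf2, Cbx7 with Ezh2, and Ring1 with Phf19. At D6 no pair of neighbours overlapped, and the order was Suz12 (149), Mtf2 (101.5), Eed (60.94), Rnf2 (46.25), Ezh2 (37.87), Jarid2 (25.83), Cbx7 (18.37), Ezh1 (6.55), Ring1 (3.68) and Phf19 (0.714). Jarid2 thus went from the third to the sixth place. At D13, Suz12 (134.7) was again the highest, followed by Mtf2 (64.97), Rnf2 (59.42) and Eed (51.56), of which Mtf2 and Rnf2 overlapped, as did Rnf2 and Eed. Below them came Ezh2 (37.45), Jarid2 (15.43), Cbx7 (11.51), Ezh1 (10.72), Ring1 (3.29) and Phf19 (1.56), where Cbx7 and Ezh1 overlapped. The exons of 6 of the genes share between 1.54% and 6.93% of their length with a gene on the opposite strand, Mtf2 the most, with Tmed5. The library kit keeps strand, and the strand setting of the counting was not given in the sources used here.

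Several members belong to paralog families whose products stand in for each other in a complex, and the share of each was taken from CPM per kb. Of the EZH methyltransferases, Ezh2 made up 85.3% and 78.0% at D0, then 86.1% and 84.4% at D6 and then 81.5% and 74.1% at D13, the rest being Ezh1. The D0 and D13 samples overlapped. Of the RING ligases, Rnf2 made up 92.1% to 95.4% in all 6 samples. Of the Polycomb-like proteins (Phf1, Mtf2 and Phf19), Mtf2 made up 94.3% to 97.3%, so that the fall of Phf19, from 2.2% and 2.4% at D0 to 0.7% in both D6 samples, concerned a small part of the family. Of the summed level of Cbx2, Cbx6, Cbx7 and Cbx8, Cbx7 made up 55.2% and 65.3% at D0, then 55.6% and 51.5% at D6 and then 47.3% and 48.9% at D13. It was the highest of these genes in every sample. Its share was lower in both D13 samples than in either D0 sample, while the D6 and D0 samples overlapped.

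**Figure D4:**
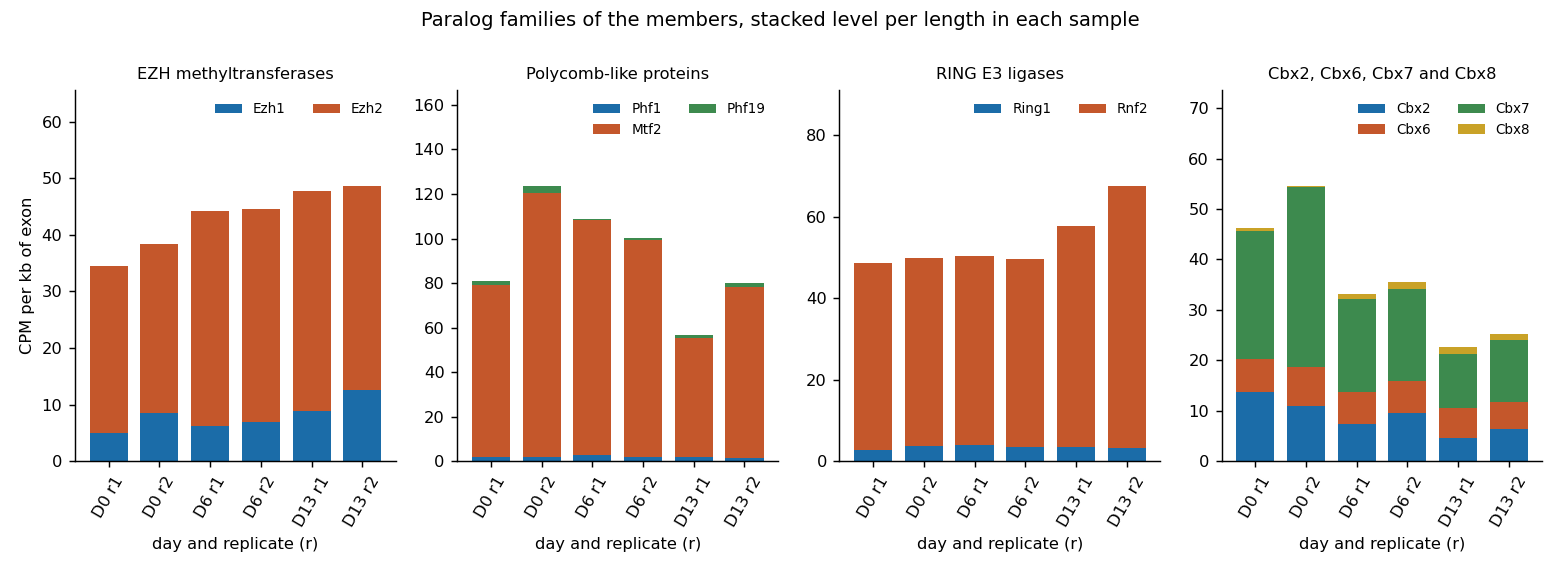
CPM per kb of exon (y axis, stacked bars from 0) of the members' paralog families in each of the 6 samples (x axis, day and replicate). Ezh2, Mtf2 and Rnf2 dominate their families in every sample, and the stack of Cbx2, Cbx6, Cbx7 and Cbx8 is lower in each D13 sample than in any D0 sample, with Cbx7 its largest part.

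The other subunits of both complexes, from a list made with earlier results of these data known, moved in both directions. Of 8 other PRC2 genes with a row, 1 rose and 0 fell to D6, 0 were called from D6 to D13 (with 2 at an unadjusted p under 0.05, and 0 with voom weights), and 1 rose and 1 fell from D0 to D13, with a median log2 change of 0.32 in the latter. The shares called, 1 of 8 to D6 and 2 of 8 to D13, were below the 24.2% and 42.7% of all genes. The number that rose by D13 was 2 without D13 replicate 1 and 3 with the length trend removed. Aebp2, an accessory subunit of the JARID2-containing form of PRC2, rose to D6, from a log2 CPM of 6.77 and 6.86 to 7.76 and 7.61 (log2 change 0.87 ± 0.21, limma adjusted p = 0.017). AU022751 (Ezhip), an inhibitor of PRC2, rose from 1.02 and 1.45 at D0 to 3.06 and 3.00 at D13 (1.80 ± 0.33, limma adjusted p = 0.0031), with 1.76 without D13 replicate 1 and 1.69 without the length trend. AU022751 was called also with the length trend removed. E130012A19Rik (Epop), a subunit of the form of PRC2 with Polycomb-like proteins, fell from 7.59 and 6.83 at D0 to 6.47 and 5.76 at D13 (-1.10 ± 0.32, limma adjusted p = 0.024), with -1.45 without D13 replicate 1. Its length is annotated under Epop (2314 bases) but was not matched to this name, so the trend with length was not removed from E130012A19Rik.

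Of 21 other PRC1 genes, all with a row, 4 rose and 1 fell to D6, 0 were called from D6 to D13 (with 5 at an unadjusted p under 0.05, and 0 with voom weights), and 3 rose and 5 fell from D0 to D13. These shares, 5 of 21 to D6 and 8 of 21 to D13, were below the 24.2% and 42.7% of all genes. Their median log2 change by D13 was -0.29, but 0.05 with the length trend removed. Over 4-fold, 1 rose and 1 fell in each comparison with D0. Phc1, which encodes a Polyhomeotic subunit of canonical PRC1, fell from a log2 CPM of 9.28 and 9.96 at D0 to 7.22 and 7.56 at D6 and then to 7.05 and 7.18 at D13, a log2 change from D0 to D13 of -2.50 ± 0.27 (limma adjusted p = 0.00020) and close in size to that of Jarid2. Without D13 replicate 1 it was -2.44 and without the length trend -2.37, both called. Cbx8, a paralog of Cbx7, rose from 0.74 and -0.60 at D0 to 2.27 and 1.97 at D13 (2.05 ± 0.48, limma adjusted p = 0.0095). Bmi1, which encodes the RING partner PCGF4, rose from 3.32 and 3.76 at D0 to 5.27 and 5.29 at D6 (1.74 ± 0.26, limma adjusted p = 0.0016) and was at 4.82 and 5.15 at D13, where its log2 change from D0 was 1.44, 1.61 without D13 replicate 1 and 1.52 without the length trend, all called. Pcgf1, which encodes the PCGF subunit of a variant PRC1, rose from 2.81 and 2.58 at D0 to 4.30 and 3.85 at D13 (1.38 ± 0.28, limma adjusted p = 0.0049), a change of 0.76 with the length trend removed (limma adjusted p = 0.025) and of 1.16 without D13 replicate 1 (limma adjusted p = 0.029). Thus Cbx7 fell while Cbx8 rose, and per kb Cbx8 still made up only 5.8% and 4.2% of the summed level of Cbx2, Cbx6, Cbx7 and Cbx8 at D13. Without D13 replicate 1, Cbx8 kept 1.90 from D0 to D13 but was not called (limma adjusted p = 0.067), while it was 2.13 without the length trend (limma adjusted p = 0.0087). Without that library, 3 genes rose and 3 fell by D13, and 2 had fallen to D6.

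A further list held 13 genes of enzymes that oppose Polycomb marks and of their partners. The classes were demethylases of H3K27, deubiquitinases of H2A with their partners, and methyltransferases of H3K4 and H3K36. Of these 13 genes, 0 rose and 7 fell from D0 to D13, where 21.8% of all genes fell. The median log2 change was -0.98, and that of all genes was -0.01. To D6 0 rose and 1 fell (all genes fallen, 10.4%), or 3 without D13 replicate 1 (all genes, 12.8%), and from D6 to D13 0 were called (1 at an unadjusted p under 0.05, and 0 with voom weights). These counts moved with D0 replicate 2, without which the median log2 change from D0 to D13 was -0.78. They moved with D13 replicate 1 too. Without it, 3 fell from D0 to D13 (all genes, 15.9%) with a median of -0.61, and with the length trend removed 7 fell (all genes, 23.0%) with a median of -0.48. Kmt2a, an H3K4 methyltransferase with a long transcript, was at a log2 CPM of 6.94 and 7.71 at D0 and 5.04 and 6.53 at D13, where the replicates differed by more than a log2 unit. Its log2 change was -1.54 ± 0.46 (limma adjusted p = 0.026), and -0.79 (limma adjusted p = 0.14) without D13 replicate 1, but it was called with the length trend removed (-1.01, limma adjusted p = 0.0079). The same held for Mysm1, an H2A deubiquitinase (-1.30 ± 0.36, limma adjusted p = 0.019), with -0.71 (adjusted p = 0.062) without that library and -0.91 (adjusted p = 0.011) without the length trend. Kmt2d, another H3K4 methyltransferase (-1.20 ± 0.36, limma adjusted p = 0.026), was at -0.68 (adjusted p = 0.14) and -0.66 (adjusted p = 0.013) in the same order. Asxl1, a partner of the deubiquitinase BAP1 (-1.22 ± 0.24, limma adjusted p = 0.0043), was called in both, at -0.96 (adjusted p = 0.021) and -0.84 (adjusted p = 0.0033).

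Of 26 genes known as Polycomb targets in ES cells, 9 had a row, and the rest were not analysed here. From D0 to D13, 4 rose and 1 fell, and the median log2 change was 0.30 (0.11 without D13 replicate 1), where 42.7% of all genes were called, 20.9% upward. The same counts were found at D6 (all genes, 24.2%, with 13.8% upward), and from D6 to D13 0 were called (1 at an unadjusted p under 0.05, and 0 with voom weights). Every gene of the files reached at least 0.991 CPM in 3 of the 6 samples, as a filter on low values would leave them. Hoxb13 and Lhx2, under 1 CPM in both D0 samples, had a row only through the samples in 2i+vitC, so that both had to be higher there, and the counts and the median over the 9 genes are no support for a direction of the list. Hoxb13 rose from a log2 CPM of -1.23 and -3.36 at D0 to 1.87 and 1.22 at D13 (3.84 ± 0.70, limma adjusted p = 0.0030), Lhx2 from -0.76 and -1.96 to 2.51 and 2.20 (3.72 ± 0.48, limma adjusted p = 0.00050) and Cdkn2a, a cell cycle inhibitor, from 2.75 and 1.70 to 5.52 and 4.999 (3.04 ± 0.37, limma adjusted p = 0.00037). The imprinted cell cycle inhibitor Cdkn1c fell from 6.26 and 4.08 at D0 to 1.46 and 1.06 at D13 (-3.91 ± 0.61, limma adjusted p = 0.0014), and its D0 replicates differed by over 2 log2 units. All 4 genes were called also without D13 replicate 1 (3.51, 3.56, 2.78 and -4.11 in the order given) and without the length trend (3.74, 3.71, 2.4001 and -4.07). Polycomb binding at these genes was not analysed here.

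The course of Jarid2 over the 6 samples was closest to that of Tmem57, Kif5c, Stxbp4, Usp36 and Lphn1. The root mean square distance between their log2 CPM and that of Jarid2, each centred on its own mean, ran from 0.108 to 0.135, and their log2 changes from D0 to D13 from -2.20 to -2.31. Likeness over 6 samples of 3 days says only that these genes fell in the same steps.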

How the data were processed

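Poly(A) RNA-seq of J1 ES cells was analysed at D0, D6 and D13, with 2 biological replicates per day; what separates replicates is not stated further, so p-values measure the spread between these samples. The authors mapped reads onto mm10 with TopHat2 2.0.6, counted them on RefSeq genes with HTSeq 0.6.1, combined genes and transposon families (mapped with Bowtie 1.0.0), applied TMM (edgeR) to both together and deposited the log2 CPM of voom. As the files hold log2 values, limma 3.58.1 (R 4.3.3) was used on them, with voom weights as an alternative: a mean for each day, eBayes with a trend, all 6 samples, no block, and Benjamini-Hochberg adjustment over 12928 rows (12626 genes and 302 families). Genes were called at an adjusted p under 0.05 and, as in the methods of the study, also with more than a 4-fold change.

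All gene values lay on whole reads (tolerance 0.05), which gave the depth. The precision is that of 2 samples per day. CPM per kb used the exon union of GENCODE vM21 (GRCm38), while the authors counted on RefSeq. In the gene names the capital G is missing throughout, 464 names begin in lower case and 44 names occur in more than a single row. None of the 10 members was affected, and affected rows were tested but not named. The length trend was a lowess (fraction 0.3) of each sample's deviation on log10 length over 11214 genes (88.8%). Rows without a matched length were left unchanged. The fit was tested on simulated data. Tables and figures used Python 3.11.15, numpy 2.4.6, pandas 2.3.3, statsmodels 0.14.6 and matplotlib 3.10.9.

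The members and gene lists were chosen with earlier results of these data known. Of each other list, at most 4 genes were named, those with the largest change from D0 to D13 among the genes called in any comparison. The 5 genes most like Jarid2 were named by distance, and shares within paralog families concern the members and, for Cbx8, a gene named by that rule. Sox2, Sall4, Lama1, Pdgfra and Sox17 were named after their values were seen. Some items are not reported here.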

Additional observations from a re-analysis of the deposited data

How the results depend on the processing

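For 30 fold changes under 14 fits each, 391 of 420 values kept their direction and side of the threshold, 16 newly passed it, 0 lost it and 13 changed sign, all 13 of changes that were not called. The number of the 10 genes called from D0 to D6 was 4 in place of 2 with the length trend removed and 4 with only the 2 days compared (Suz12 and Cbx7 being added each time), and 2 to 4 with a sample left out (4 without D13 replicate 1 and without D13 replicate 2). From D6 to D13 it was 0 to 1 with a sample left out (Jarid2, without D13 replicate 2), and from D0 to D13 it was 4 with the length trend removed. Over 4-fold, 0 to 1 were called from D0 to D6 with a sample left out (Phf19, without D0 replicate 1). With a 2-fold minimum in place of 4-fold, 2 were called from D0 to D6 and 2 from D0 to D13. The share of all genes called in either direction under each of these fits is not given here. A higher count is therefore no result about the 10 genes. The cause of these shifts was not tested.

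The sign of the log2 change turned as follows. For Ezh1 from D0 to D6 it was -0.0007 with voom precision weights and ran from -0.37 to 0.37 with a sample left out (-0.085 without D6 replicate 2). With a sample left out, the ranges from D0 to D6 were -0.023 to 0.47 for Eed, -0.23 to 0.39 for Mtf2 and -0.031 to 0.44 for Ring1. From D6 to D13 they were -0.073 to 0.039 for Ezh2 and -0.49 to 0.13 for Suz12. From D0 to D13 they were -0.27 to 0.22 for Eed (0.082 without D13 replicate 2) and -0.19 to 0.28 for Ring1 (-0.037 without D13 replicate 1), and Ring1 was at -0.015 with the length trend removed.

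Replicate numbers recur on each day. Over 12626 genes, the deviations of same-numbered samples were correlated between days. The r was -0.13 for D0 with D6, 0.33 for D6 with D13 and 0.14 for D0 with D13. These values differ in sign and do not settle whether same-numbered samples share more than a number. The origin of the correlations was not tested. With the replicate block, Cbx7 from D0 to D6 (-0.71) and Ezh1 from D0 to D13 (0.69) were also called.

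Levels depend on the length taken. With the longest transcript in place of the exon union, CPM per kb at D0 was 11.93 for Ezh1, 70.98 for Ezh2, 98.13 for Eed, 102.7 for Suz12, 96.97 for Jarid2, 137.6 for Mtf2, 59.4 for Rnf2 and 4.10 for Ring1, so that Ezh2 and Eed stood higher in the order. Ezh1 minus Ezh2 at D6 was -2.38 on the log2 CPM scale and -2.53 per kb. With 2 replicates per day the intervals are wide, and a gene that passed no test is not thereby shown to be unchanged.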
